A study of Homo sapiens with 9 samples.

Results

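The line described here is PANC-1 carrying a lentiviral SLC22A10 construct (pLV-SLC22A10), called SLC22A10_OE, and it was compared with PANC-1 carrying the empty construct (pLV-EV), called vector. PANC-1 is an established human cell line from a pancreatic ductal carcinoma. A further line carrying SLC22A15 (pLV-SLC22A15), called SLC22A15_OE, was made the same way and served as the second point of comparison. All groups had been selected with puromycin, were kept in a lower dose of it, and were used within 10 passages, so that the vector cells share the virus, the drug and the medium with the overexpressing cells. Each line is a stable clone by its description, and the empty construct does not control for where a construct landed or for which cells were picked. Of the 9 RNA sequencing libraries, 3 came from each group, and 6 enter the comparison of SLC22A10_OE with vector. The rule compared all genes that reached 1 CPM (counts per 1000000 reads) in at least 3 of the 9 libraries, which kept 14554 of the 16750 genes in the table. The sample titles of each group end in A1, A2 and B1, whose meaning is not stated and which cannot be matched to the columns of the table. Nothing in the descriptions says that the 3 libraries of a group came from separate cultures or clones. The p-values below therefore measure only how these libraries vary, and that variation may be technical. In bulk RNA, fewer cells of a kind and less RNA per cell cannot be told apart.

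SLC22A10 belongs to the SLC22 family, membrane proteins that move organic anions, cations and zwitterions across the plasma membrane. Several of the gene groups below work as known circuits. Interferons act through factors such as STAT2 and IRF9, which bind the interferon-stimulated response element of antiviral genes. MYC drives the factors that build ribosomes in the nucleolus and binds the E-box, while E2F factors switch on DNA replication genes at the start of S phase. TXNIP restrains glucose uptake and is itself switched on by MLXIPL and its relative MLXIP when sugar phosphates accumulate.

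For 3 of these groups, promoters that hold a searched motif are shown. They were picked from members that passed the test and had a match, so they do not stand for all members. The sequences below come from RefSeq (GRCh38.p14), run 5′ to 3′ on the strand of the gene, lie before the annotated gene, and carry the searched motif in capitals. For the interferon-stimulated effectors, whose transcripts rose most as a list, the capitals mark GAAANNGAAA or its reverse complement, and overlapping copies run together.
BST2 (chr19:17405715-17405790, minus strand): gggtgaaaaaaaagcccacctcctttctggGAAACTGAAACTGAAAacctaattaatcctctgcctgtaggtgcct
IFIT3 (chr10:89327811-89327914, plus strand): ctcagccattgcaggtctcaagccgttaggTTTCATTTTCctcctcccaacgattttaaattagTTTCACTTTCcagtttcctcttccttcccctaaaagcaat
IFIT1 (chr10:89392477-89392559, plus strand): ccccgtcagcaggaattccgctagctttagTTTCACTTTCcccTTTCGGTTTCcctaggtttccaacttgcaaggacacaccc
ISG15 (chr1:1013354-1013429, plus strand): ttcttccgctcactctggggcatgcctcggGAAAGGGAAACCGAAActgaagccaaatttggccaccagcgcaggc
In ribosome biogenesis genes, which fell as a list, the capitals mark the E-box CACGTG.
UTP20 (chr12:101280065-101280104, plus strand): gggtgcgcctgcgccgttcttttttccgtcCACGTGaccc
UTP4 (chr16:69132603-69132648, plus strand): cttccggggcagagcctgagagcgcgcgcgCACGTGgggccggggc
In DNA replication genes, which also fell, the capitals mark the E2F site TTTCCCGC, here as its reverse complement.
GINS2 (chr16:85688955-85689015, minus strand): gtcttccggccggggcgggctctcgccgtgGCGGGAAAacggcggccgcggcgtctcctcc
RFC3 (chr13:33818064-33818131, plus strand): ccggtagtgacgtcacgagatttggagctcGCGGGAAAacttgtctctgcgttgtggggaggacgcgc
PCNA (chr20:5126644-5126711, minus strand): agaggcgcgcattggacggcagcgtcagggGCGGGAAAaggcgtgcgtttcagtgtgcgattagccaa

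Both strands were searched in windows from 250 bases before to 50 bases after each start. The response element was found in 20 of the 26 interferon-stimulated effectors that had a window (76.9%), against 3.85% of 11161 tested genes with a window and 3.57% of 35116 windows of all genes. The E-box stood in 15 of 32 members of the list of MYC and ribosome biogenesis genes (46.9%), against 12.3% of tested genes and 7.26% of all windows. That list also holds MAX, MXD1, MXD3, MXD4 and MYCL, of which only MXD4 had a match. NOP56, NCL and DKC1 had none. The E2F site stood in 12 of 38 DNA replication genes (31.6%), against 3.22% and 1.63%. Among members that passed the test, the motif stood in 17 of 22 effectors that rose. For those that fell, it was 14 of 26 in the MYC and ribosome biogenesis list and 10 of 26 replication genes. A match describes letters and does not show that a factor bound there.

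The transduced gene was read first. SLC22A10 (chr11:63289903-63363144, GRCh38.p14) stood at 80.5, 91.4 and 84.4 CPM in the 3 SLC22A10_OE libraries, which is 3115, 3194 and 2347 reads. Vector libraries held 0, 1 and 0 reads of it and SLC22A15_OE libraries 0, where a count of 0 allows up to 0.0952, 0.0779 and 0.0691 CPM (3 reads, counting error only). The limma log2 fold change was 6.42 (SE 0.09, adjusted p = 5.28e-14), its size rests on the pseudocount of 1 CPM, and an exact permutation test (two-sided) gave 0.1, the lowest p within reach of 3 against 3. Reads of the construct and of the endogenous gene cannot be told apart. Library totals ran from 28.4 to 42.9 M reads (1 M is 1000000), so that 1 CPM was 27.8 to 43.4 reads, with a counting SD of 15.2% to 19.0%. In 1 library of each group (vector 1, SLC22A10_OE 3, SLC22A15_OE 1) the mitochondrial ribosomal RNAs took 0.00958% to 0.0151% of reads. The main counts without these 3 libraries are in the closing section.

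Against vector, SLC22A10_OE had 5047 genes higher and 4728 lower (limma on log2(CPM + 1), Benjamini-Hochberg adjusted p under 0.05), which is 34.7% and 32.5% of the genes tested. These shares are the background for each list below. Against SLC22A15_OE, 4674 genes were higher (32.1%) and 4484 lower (30.8%). SLC22A15_OE differed from vector in fewer genes, with 1572 higher (10.8%) and 1394 lower (9.58%). A gene was called set apart in SLC22A10_OE when it passed against vector and against SLC22A15_OE in the same direction. By that rule 4021 genes were set apart as higher (27.6%) and 3712 as lower (25.5%), 7733 in all, or 79.1% of the genes that passed against vector. Both contrasts use the same SLC22A10_OE libraries, so this overlap was not tested. All 3 SLC22A10_OE libraries lay above the other 6 in 4174 genes (28.7%) and below them in 3933 (27.0%).

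Most of these differences were small. The set-apart genes that were higher had a median log2 fold change of 0.60 against vector and 0.52 against SLC22A15_OE, and those that were lower had -0.48 and -0.44. At least 2-fold in both contrasts were 585 higher and 130 lower genes. Of the 4021 higher genes, SLC22A15_OE did not pass against vector in 3157, passed in the same direction in 681 and in the opposite one in 183. For the 3712 lower genes these counts were 3134, 476 and 102. When each library was centred on its median gene, the change against vector shifted by -0.12 for all genes. The split then became 3875 higher and 6233 lower against vector, and 3063 higher and 5051 lower among set-apart genes, so that the direction of small changes depends on how the libraries are scaled.

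**Figure D1:**
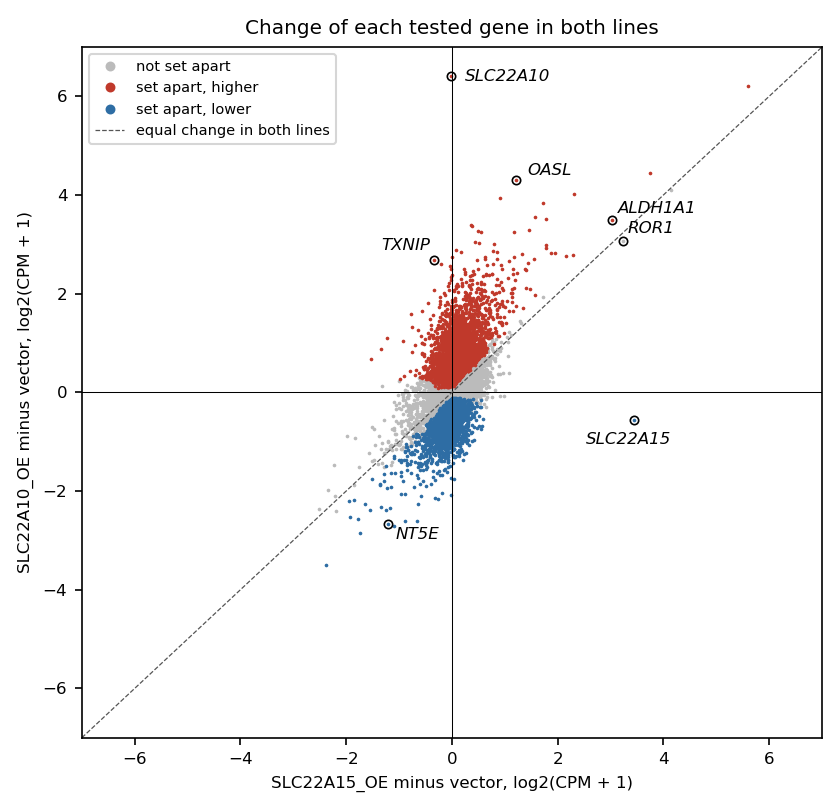
Log2 fold change of each of the 14554 tested genes in SLC22A15_OE (horizontal axis) and SLC22A10_OE (vertical axis), both against the same vector libraries, on log2(CPM + 1). Red and blue points are the 4021 higher and 3712 lower set-apart genes, TXNIP lies in the upper left part at -0.34 and 2.69, and ROR1 lies near the dashed line of equal change at 3.23 and 3.07.

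The largest set-apart rises held genes of glucose handling and stress signals. TXNIP (chr1:145992435-145996579), the brake on glucose uptake, stood at 56.4, 56.4 and 55.9 CPM in vector, at 371.5, 370.5 and 362 CPM in SLC22A10_OE and at 44.3, 44.9 and 43.4 CPM in SLC22A15_OE. The 3 SLC22A10_OE libraries lay 6.55-fold above vector on average, and SLC22A15_OE lay below vector. That SLC22A10_OE did not overlap the other 6 libraries was required by the rule that named TXNIP. The limma log2 fold change was 2.69 (SE 0.04, adjusted p = 8.77e-14). PDK4, a kinase that shuts pyruvate out of the citric acid cycle, was at 1.42, 1.46 and 1.14 CPM in vector and at 13.5, 14.3 and 11.8 CPM in SLC22A10_OE, while SLC22A15_OE had 1.02, 1.17 and 0.875 CPM. SLC2A3, the glucose transporter GLUT3, was near background in both other groups, at 0.0795 to 0.169 CPM in vector, and reached 6.90, 5.47 and 7.01 CPM in SLC22A10_OE. Reads of SLC2A3 can be shared with its close copy SLC2A14, and the sources used here do not say how such reads were counted. GDF15, a secreted stress factor, stood at 3.85, 3.91 and 3.66 CPM in vector, at 23.4, 26.2 and 29.4 CPM in SLC22A10_OE and at 3.13 to 4.76 CPM in SLC22A15_OE. KLF9, a zinc-finger repressor induced by steroid and thyroid hormones, rose from 3.07 to 3.77 CPM in vector to 24.6 to 26.7 CPM, 7.32-fold.

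Other set-apart rises were of varied kinds. SNCG, gamma-synuclein, rose from 1.07 to 1.54 CPM in vector to 33.1, 34.4 and 34.8 CPM, with 3.13 to 3.56 CPM in SLC22A15_OE. SEMA6B, a membrane-bound semaphorin that guides axons, stood at 7.40 to 11.9 CPM in vector and at 100.1 to 117 CPM in SLC22A10_OE. NOVA2, a neuronal splicing factor, stood at 6.95 to 8.28 CPM against 76.8 to 85.4 CPM. For these genes, SLC22A10_OE lies beyond the other 6 libraries by the rule that named them. CREB3L3, a transcription factor anchored in the endoplasmic reticulum and typical of liver, rose from 0.703 to 1.45 CPM to 8.91 to 9.64 CPM, and QPRT, an enzyme of NAD synthesis, from 0 to 0.123 CPM to 5.12 to 7.99 CPM. TENT5A, which adds adenosines to RNA tails, rose from 8.18 to 9.82 CPM to 81.0 to 83.4 CPM. CD14, the co-receptor for bacterial lipopolysaccharide, rose from 0.563 to 0.689 CPM to 7.52 to 9.14 CPM. TJP3, a scaffold of tight junctions, rose from 1.49 to 1.94 CPM to 11.7 to 14.9 CPM. For CREB3L3, TJP3, GDF15 and KLF9 the SLC22A15_OE line differed from vector by -0.03 to -0.01 on the log2 scale.

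**Figure D2:**
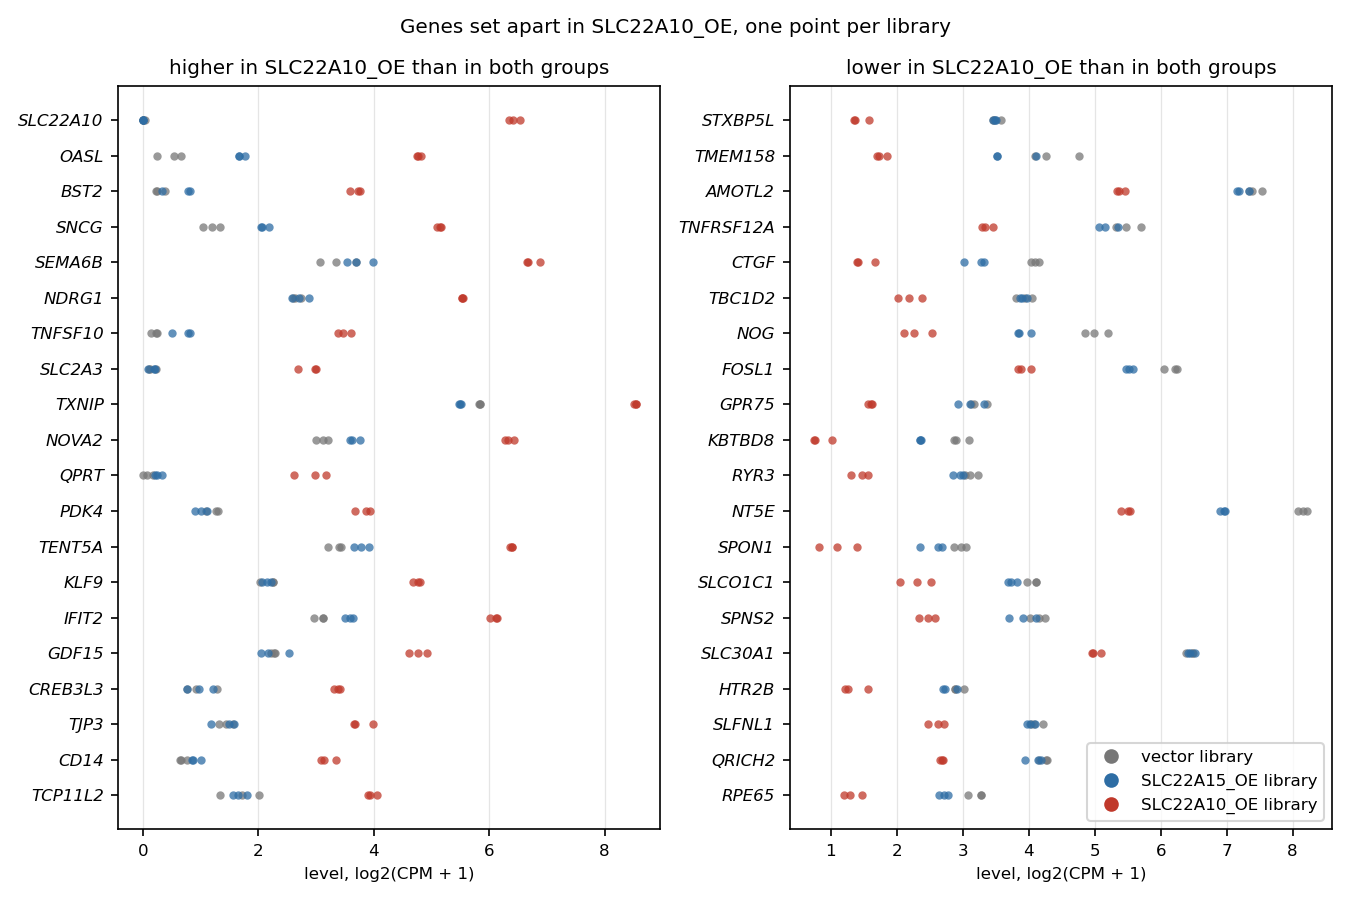
Level of the 20 genes named as higher (left) and the 20 named as lower (right) in each of the 9 libraries, as log2(CPM + 1), one point per library and coloured by group. The red SLC22A10_OE points of every gene lie apart from the others, which the rule that named these genes required. The grey vector and blue SLC22A15_OE points overlap each other for genes such as SLC30A1 and TBC1D2.

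The largest set-apart falls included transporters and receptors. SLC30A1, the zinc exporter of the plasma membrane, stood at 88.5, 88.1 and 82.7 CPM in vector, at 33.0, 30.2 and 30.4 CPM in SLC22A10_OE and at 86.3, 84.4 and 91.0 CPM in SLC22A15_OE. SLC22A10_OE thus held 36.2% of the vector mean (limma log2 fold change -1.44, SE 0.06, adjusted p = 3.64e-10). Its place outside the range of the other 6 libraries was required by the rule that named SLC30A1. SLCO1C1, which carries thyroid hormones and other organic anions, stood at 14.7 to 16.3 CPM in vector, 3.15 to 4.70 CPM in SLC22A10_OE and 11.9 to 13.1 CPM in SLC22A15_OE. SPNS2, the exporter of sphingosine-1-phosphate, stood at 15.2 to 18.0 CPM against 4.06 to 4.95 CPM. The serotonin receptor HTR2B fell from 6.36 to 7.14 CPM to 1.32 to 1.96 CPM, and the calcium release channel RYR3 from 7.21 to 8.38 CPM to 1.47 to 1.94 CPM. STXBP5L, a brake on vesicle release, fell from 10.0 to 10.9 CPM to 1.55 to 1.98 CPM and had 9.98 to 10.3 CPM in SLC22A15_OE. TBC1D2, which switches off Rab proteins, fell from 13.1 to 15.6 CPM to 3.06 to 4.21 CPM. TNFRSF12A, the receptor for TWEAK, fell from 38.9 to 51.3 CPM to 8.81 to 10.0 CPM. FOSL1, an AP-1 subunit, stood at 65.2 to 75.2 CPM in vector, 13.3 to 15.3 CPM in SLC22A10_OE and 43.5 to 46.6 CPM in SLC22A15_OE. Every gene named in these paragraphs kept its call against vector when any 1 of the 9 libraries was left out. They were picked for large changes in the same libraries, so this is no independent support.

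Of the 59 gene lists, 1519 members were tested over the lists and the cell type markers together. Among lists with at least 12 tested members, those with the largest shares of members that fell were mitosis, ribosome biogenesis, heat shock chaperones, DNA replication, organic anion transport and amino acid transport. The largest shares that rose were in interferon-stimulated effectors, antigen processing, fatty acid oxidation and the hypoxia response. The median log2 fold change of all tested genes against vector was 0.00 (0.0046), which is the value to hold each list's median against.

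**Figure D3:**
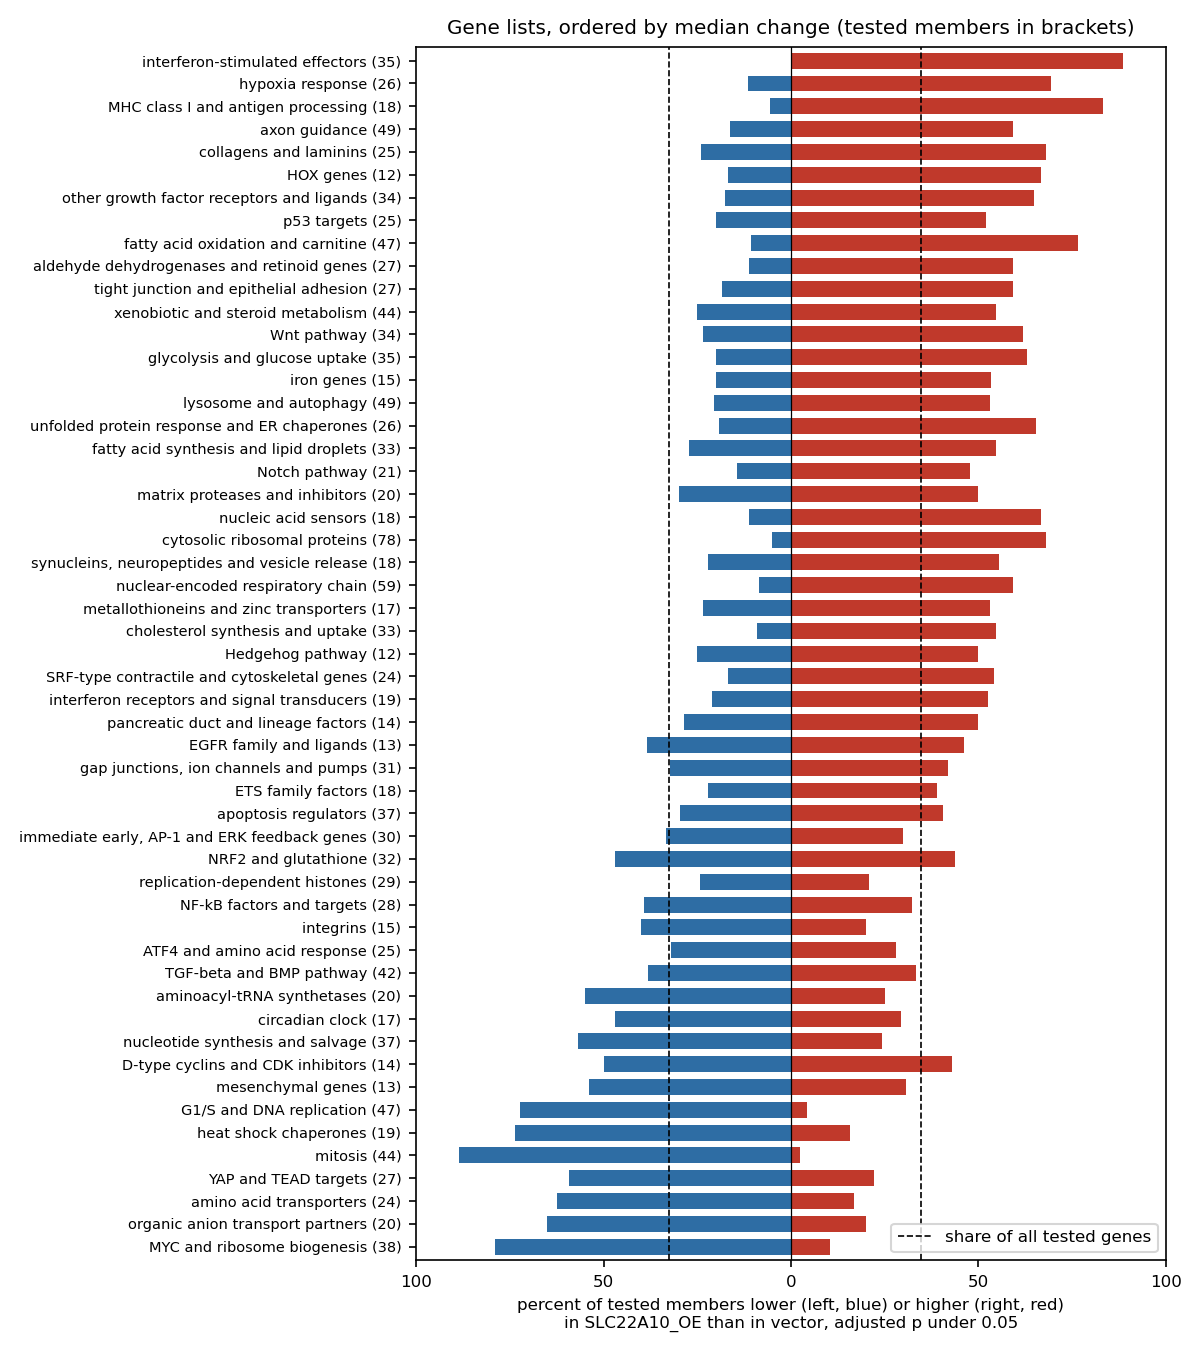
Share of tested members of each gene list that was lower (blue, left) or higher (red, right) in SLC22A10_OE than in vector at an adjusted p under 0.05 in limma, for lists with at least 12 tested members, ordered by median change. Dashed lines mark the shares over all tested genes, 32.5% lower and 34.7% higher, and the bars of interferon-stimulated effectors and of ribosome biogenesis reach far past them in opposite directions.

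Among interferon-stimulated effectors, the antiviral proteins made in response to interferon, 31 of 35 tested members rose and 0 fell (median log2 fold change 1.43), and 29 were set apart. In SLC22A15_OE 21 rose and 0 fell, with a median of 0.48. OASL, an antiviral relative of the oligoadenylate synthetases, stood at 0.185, 0.450 and 0.583 CPM in vector, at 25.8, 26.2 and 27.2 CPM in SLC22A10_OE and at 2.16, 2.39 and 2.19 CPM in SLC22A15_OE. BST2, or tetherin, which holds budding virus at the cell surface, stood at 0.308, 0.169 and 0.186 CPM in vector, at 10.98, 12.2 and 12.5 CPM in SLC22A10_OE and at 0.254, 0.728 and 0.760 CPM in SLC22A15_OE. SLC22A15_OE did not pass against vector for BST2 (limma log2 fold change 0.36, adjusted p = 0.084). IFIT2, which binds foreign RNA, reached 63.4 to 69.0 CPM against 6.78 to 7.69 CPM, and IFIT3 48.0 to 49.9 CPM against 3.71 to 4.53 CPM. The members that did not pass against vector were EIF2AK2, SP110, TRIM21 and IFIT5, with log2 fold changes of -0.03 to 0.21. IFIT5 passed as higher without vector library 2 (0.31) or SLC22A15_OE library 1 (0.21), and with a term for the 3 libraries low in mitochondrial ribosomal RNA (limma adjusted p = 0.00476). IFITM and APOL genes have near-identical neighbours, and their split of reads is uncertain.

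The sensors of foreign nucleic acid rose more often than they fell. DDX58, the RNA sensor RIG-I, rose from 11.9 to 13.3 CPM in vector to 69.2, 67.3 and 60.8 CPM (5.18-fold), with 15.7 to 18.8 CPM in SLC22A15_OE. DHX58 and TMEM173 rose with it, and TMEM173, the adaptor STING, went from 0.159 to 0.308 CPM to 4.75 to 6.19 CPM. CGAS, the enzyme that senses DNA and signals to STING, fell from 44.9 to 47.8 CPM to 35.8 to 39.1 CPM, and the RNA receptor TLR7 from 22.6 to 27.5 CPM to 18.1 to 20.9 CPM. In all, 12 of 18 sensors rose and 2 fell (median 0.24), and in SLC22A15_OE 7 rose and 0 fell (median 0.18). Of 11 interferon genes looked for by symbol, 0 were among the 16750 genes given, so their levels could not be analysed. Of the interferon receptors and signal transducers, 10 of 19 rose and 4 fell. STAT2 rose by 0.75 on the log2 scale and IRF1 by 0.89, while STAT3 (-0.26), JAK2 (-0.30) and the receptor chain IFNAR1 (-0.26) fell.

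Antigen processing moved mostly upward, with 15 of 18 members higher, 1 lower and 11 set apart as higher (median 0.65). SLC22A15_OE moved the same way to a lesser degree, with 9 higher and 0 lower (median 0.26). B2M, the light chain of class I molecules, stood at 94.7, 100.7 and 94.3 CPM in vector and at 172, 178 and 169 CPM in SLC22A10_OE, with 109 to 120.3 CPM in SLC22A15_OE. ERAP2, which trims peptides, rose from 21.9 to 25.6 CPM to 58.1 to 66.2 CPM, and the proteasome activator PSME1 from 88.8 to 89.7 CPM to 179 to 190 CPM. TAP2, a peptide pump of the endoplasmic reticulum, fell from 3.69 to 5.78 CPM to 1.91 to 3.21 CPM. Reads of HLA genes can be shared between loci. Complement proteases rose with them: C1R stood at 17.4 to 19.5 CPM in vector, 97.4 to 103 CPM in SLC22A10_OE and 30.3 to 33.9 CPM in SLC22A15_OE, and C1S at 19.0 to 19.8, 68.03 to 74.6 and 29.4 to 30.3 CPM. NF-kB factors and targets showed no common direction, with 9 of 28 higher and 11 lower. In that list TNFSF10, the death ligand TRAIL, rose from 0.106 to 0.185 CPM to 9.39 to 11.1 CPM, and IL1A, an inflammatory cytokine, fell from 9.08 to 10.6 CPM to 2.78 to 3.88 CPM.

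Ribosome biogenesis genes fell in SLC22A10_OE. Of 38 tested members of the list of MYC and ribosome biogenesis genes, 30 fell and 4 rose (median -0.62), and 29 were set apart as lower. In SLC22A15_OE 2 rose and 5 fell, with a median of -0.10. NOP56, a core protein of the particles that methylate ribosomal RNA (chr20:2652632-2658393), stood at 297, 304 and 314 CPM in vector, at 142, 149.7 and 142 CPM in SLC22A10_OE and at 271, 289.8 and 284 CPM in SLC22A15_OE. SLC22A10_OE held 47.4% of the vector mean and did not overlap either group (limma log2 fold change -1.07, SE 0.04, adjusted p = 6.09e-10). Its partner NOP58 stood at 120 to 133 CPM in vector and at 56.9 to 63.6 CPM in SLC22A10_OE, and RRS1, needed for the large subunit, at 30.4 to 34.0 and 13.9 to 15.1 CPM. Log2 fold changes were -0.95 for DKC1, the pseudouridine synthase, -0.90 for the nucleolar helicase DDX21, -0.98 for UTP20, -0.89 for UTP4 and -0.66 for nucleolin (NCL). MYC itself did not pass, at 225.7 to 254 CPM in vector and 210.3 to 227 CPM in SLC22A10_OE (limma log2 fold change -0.12, adjusted p = 0.059), but this sat at the threshold. MYC passed as lower with edgeR (adjusted p = 0.0474), with centred libraries (-0.24) and without vector library 2 or SLC22A10_OE library 3 (-0.15 and -0.14). MYC also passed with DESeq2 (0.0499), with a term for the 3 libraries low in mitochondrial ribosomal RNA (limma adjusted p = 0.000947) and without these libraries (0.0282). The members that rose were MXD1, MXD3, MXD4 and MYCL. MXD1 lost its call without any 1 of the 3 vector libraries or of SLC22A10_OE libraries 1 and 3 (limma adjusted p from 0.0583 to 0.142), with centred libraries (0.334), with the 6 compared libraries alone (0.0508) and without the 3 libraries with little mitochondrial ribosomal RNA (0.196). MXD proteins compete with MYC for their shared partner MAX, and MXD4 went from 41.3 to 50.3 CPM to 64.1 to 78.3 CPM.

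Transcripts of the ribosomal proteins went the other way from the factors that assemble them. Of 78 cytosolic ribosomal proteins 53 rose and 4 fell, with a small median of 0.24, and 52 were set apart as higher, against 1 higher and 9 lower in SLC22A15_OE. With libraries centred on their medians 33 rose, so part of this count rests on the scaling. RPL13A stood at 258 to 263 CPM in vector and at 417, 485 and 438 CPM in SLC22A10_OE. RPL9 fell from 13.5 to 15.2 CPM to 8.27 to 9.87 CPM. These genes have many processed copies in the genome, and their counts are uncertain. Aminoacyl-tRNA synthetases fell in 11 of 20 and rose in 5, among them TARS (-0.53) and FARSB (-0.56) down and AARS (0.45) up.

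**Figure D4:**
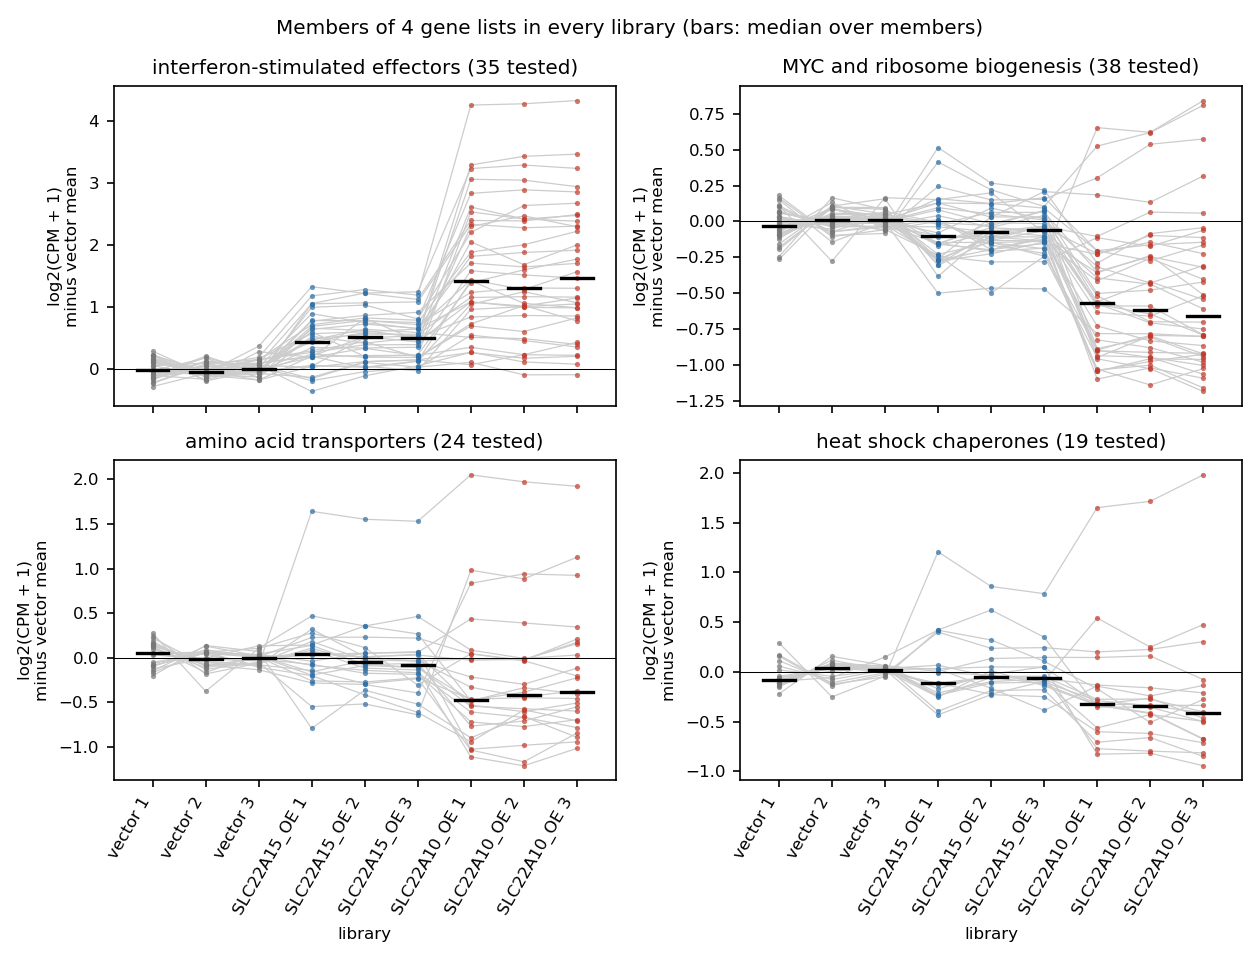
Change of every tested member of 4 lists in each of the 9 libraries, as log2(CPM + 1) minus the mean of the 3 vector libraries, with a grey line per gene and a black bar at the median over members. The SLC22A10_OE medians are 1.31 to 1.47 for interferon-stimulated effectors, -0.66 to -0.57 for ribosome biogenesis, -0.47 to -0.39 for amino acid transporters and -0.41 to -0.32 for heat shock chaperones.

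Amino acid transporters fell as a group, with 15 of 24 members lower, 4 higher and 14 set apart as lower (median -0.40). SLC7A5, the LAT1 carrier of leucine and other large neutral amino acids, stood at 220.7, 185 and 189 CPM in vector, at 90.8, 84.7 and 97.0 CPM in SLC22A10_OE and at 209.6, 182 and 179 CPM in SLC22A15_OE. Its partner chain SLC3A2 stood at 88.3, 72.0 and 83.1 CPM in vector and 47.0, 49.0 and 54.8 CPM in SLC22A10_OE. Neither gene overlapped between SLC22A10_OE and vector. Over all genes tested, SLC22A10_OE lay below all 6 other libraries in 27.0%. SLC7A6, a second partner of SLC3A2, fell from 135 to 140.2 CPM to 66.6 to 70.7 CPM, and SLC36A1, a proton-coupled carrier of lysosomes, from 42.7 to 49.6 CPM to 19.6 to 24.7 CPM. Members that rose were SLC1A1, a glutamate carrier, SLC7A2, SLC43A1 and SLC38A2. SLC1A1 stood at 5.34 to 6.89 CPM in vector, 11.8 to 14.2 CPM in SLC22A10_OE and 3.46 to 3.85 CPM in SLC22A15_OE. The response genes of ATF4, which many of these carriers share as a regulator, showed no common direction, with 7 of 25 higher and 8 lower. ATF5, a stress-induced relative of ATF4, fell from 93.8 to 108 CPM to 36.4, 35.5 and 39.1 CPM, with 90.2 to 104 CPM in SLC22A15_OE. DDIT4, which restrains the growth kinase mTORC1, rose from 45.2 to 50.6 CPM to 142, 145 and 159 CPM.

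In a list of other organic anion carriers, pumps and their scaffolds 13 of 20 were lower and 4 higher (median -0.45), and with a filter at 5 CPM 7 were lower. ABCC2, an apical export pump for conjugated anions, stood at 180, 197 and 193 CPM in vector, 120, 126 and 126 CPM in SLC22A10_OE and 168 to 177 CPM in SLC22A15_OE. SLCO1B1, an uptake carrier of liver, stood at 2.71 to 4.003 CPM in vector and 0.887 to 1.29 CPM in SLC22A10_OE, and PDZK1, a scaffold that anchors such carriers, at 3.72 to 5.09 and 1.48 to 2.49 CPM. ABCC3, a pump of the opposite cell face, rose from 9.94 to 10.0 CPM to 18.7 to 21.0 CPM. Of the SLC22 family 9 members were tested, of which 3 rose, SLC22A10 included, and 4 fell. SLC22A17 rose from 8.33 to 9.45 CPM to 23.9 to 27.1 CPM and SLC22A18 from 1.83 to 3.20 CPM to 4.88 to 8.38 CPM. Among the members that were lower were SLC22A4 (log2 fold change -0.61), SLC22A15 (-0.56) and SLC22A20P (-0.81).

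Iron and zinc genes moved in both directions, with more members higher than lower in each list. TFRC, the transferrin receptor that imports iron (chr3:196049284-196082090), stood at 971, 1086 and 1056 CPM in vector, at 347, 354 and 330 CPM in SLC22A10_OE and at 842, 893 and 887 CPM in SLC22A15_OE. SLC22A10_OE held 33.1% of the vector mean (limma log2 fold change -1.59, SE 0.05, adjusted p = 4.38e-11). The ferritin chains moved the other way, FTH1 from 292 to 299 CPM to 405, 430 and 411 CPM and FTL by 0.43 on the log2 scale. Of 15 iron genes 8 rose and 3 fell. The zinc list, in which SLC30A1 fell most, had 9 of 17 members higher and 4 lower. Its metal-sensing factor MTF1 fell from 72.8 to 76.0 CPM to 56.4 to 62.0 CPM, and MT1A, a metallothionein with near-identical copies, rose from 4.39 to 5.01 CPM to 15.6 to 16.3 CPM.

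Chaperones split by compartment. Cytosolic and mitochondrial heat shock chaperones fell in 14 of 19 members and rose in 3 (median -0.35), against 3 higher and 2 lower in SLC22A15_OE. HSPA8, the constitutive Hsc70, stood at 2249, 2389 and 2322 CPM in vector, at 1359, 1336 and 1320.0 CPM in SLC22A10_OE and at 2141, 2247 and 2252 CPM in SLC22A15_OE. HSP90AA1 fell from 4376 to 5163 CPM to 2693 to 3071 CPM, and DNAJA1, a co-chaperone of Hsc70, from 241 to 281 CPM to 138 to 150.3 CPM. The small heat shock protein HSPB1 rose, from 91.8 to 134 CPM to 346 to 434 CPM, and SLC22A15_OE rose too, to 189 to 254 CPM. Chaperones of the endoplasmic reticulum and the unfolded protein response rose in 17 of 26 members and fell in 5 (median 0.28). PDIA4, a disulfide isomerase, went from 186 to 188 CPM to 394 to 403 CPM. CREB3L1 and CREB3L2, membrane-bound factors of secretory cells, rose from 0.123 to 0.424 CPM to 5.32 to 5.92 CPM and from 13.6 to 14.7 CPM to 39.9 to 40.9 CPM. ERN1, the stress sensor IRE1, fell from 11.1 to 12.7 CPM to 7.003 to 7.81 CPM.

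Most genes of DNA replication and mitosis fell by small amounts, while replication-dependent histones did not share a direction, with 6 of 29 higher and 7 lower (median -0.01) against 21 higher and 0 lower in SLC22A15_OE. In the list of G1/S and DNA replication genes 34 of 47 fell and 2 rose (median -0.32), all 34 were set apart, and SLC22A15_OE had 7 higher and 1 lower. CLSPN, which signals stalled replication, stood at 154, 177 and 167 CPM in vector, at 83.4, 79.8 and 73.9 CPM in SLC22A10_OE and at 165, 179 and 176 CPM in SLC22A15_OE. CCNE2, a cyclin that starts S phase, fell from 22.2 to 26.5 CPM to 11.3 to 11.96 CPM. Of 44 mitosis genes 39 fell and 1 rose (median -0.37), with 2 higher and 5 lower in SLC22A15_OE. ANLN, a scaffold of the cleavage furrow, fell from 448 to 527 CPM to 224 to 255 CPM, and CENPE, a kinetochore motor, from 188 to 262 CPM to 126.5 to 149.8 CPM. Brakes of the cycle moved unevenly. RBL2, the pocket protein p130, rose from 87.3 to 94.0 CPM to 148 to 160.3 CPM and CDKN1C from 0.398 to 0.591 CPM to 1.34 to 2.41 CPM. CDKN1A, the p21 inhibitor and best-known p53 target, fell from 1.78 to 2.55 CPM to 0.775 to 1.09 CPM, with a like level of 0.760 to 1.04 CPM in SLC22A15_OE. Of the p53 target list 13 of 25 rose and 5 fell. BTG2, an antiproliferative gene, rose from 22.2 to 23.04 CPM to 55.3 to 58.8 CPM. TIGAR, a phosphatase that slows glycolysis, fell from 65.1 to 70.3 CPM to 24.0 to 28.3 CPM.

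Pro-death and pro-survival genes were balanced as a list, with 15 of 37 apoptosis regulators higher and 11 lower. The BH3-only killers BBC3 and BMF rose, BMF from 0.159 to 0.394 CPM to 4.42, 4.38 and 4.17 CPM with 0.138 to 0.390 CPM in SLC22A15_OE. BCL2, which blocks them, fell from 22.1 to 26.4 CPM to 11.2 to 12.1 CPM, and the ubiquitin ligase BIRC2 from 150.4 to 179 CPM to 87.1 to 96.5 CPM.

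Genes of glycolysis and glucose uptake, TXNIP and PDK4 among them, rose in 22 of 35 members and fell in 7 (median 0.33), with 22 set apart as higher against 3 higher and 8 lower in SLC22A15_OE. MLXIPL, or ChREBP, a factor that can switch TXNIP on, stood at 5.63, 4.36 and 4.56 CPM in vector, at 22.9, 21.5 and 25.9 CPM in SLC22A10_OE and at 9.56 to 11.1 CPM in SLC22A15_OE. TXNIP changed by -0.34 on the log2 scale in SLC22A15_OE, and a link between these genes was not tested. ARRDC3, a relative of TXNIP, rose from 39.4 to 44.6 CPM to 94.6 to 105 CPM. Among those that fell, the late glycolytic enzyme PKM stood at 2034 to 2240.0 CPM in vector and 1485, 1526 and 1607 CPM in SLC22A10_OE, and the lactate carrier SLC16A1 at 316 to 348 and 208 to 216 CPM. SLC2A1, the widespread glucose carrier GLUT1, did not pass, at 91.0 to 107 CPM in vector and 81.7 to 94.7 CPM in SLC22A10_OE (limma log2 fold change -0.18, adjusted p = 0.056). SLC2A1 passed as lower with edgeR (adjusted p = 0.0465), with centred libraries (-0.30) and without vector library 2, SLC22A15_OE library 1 or SLC22A10_OE library 3 (-0.24 to -0.18). SLC2A1 also passed with DESeq2 (0.0449), with the 6 compared libraries alone (limma adjusted p = 0.0483), with the term for the 3 libraries low in mitochondrial ribosomal RNA (7.74e-05) and without them (0.00171). In the hypoxia list 18 of 26 rose and 3 fell (median 0.68), with 3 higher and 6 lower in SLC22A15_OE. EPAS1, or HIF-2 alpha, rose from 1.80 to 2.31 CPM to 8.97, 6.30 and 8.38 CPM. LOX, an oxygen-regulated enzyme that cross-links collagen, fell from 8.16 to 8.31 CPM to 3.35 to 3.88 CPM.

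Lipid genes rose more often than not. The cholesterol exporters ABCA1 and ABCG1, which answer to LXR receptors, were high in both lines: ABCA1 stood at 14.9 to 16.4 CPM in vector, 136, 126 and 127 CPM in SLC22A10_OE and 55.5 to 55.8 CPM in SLC22A15_OE. Genes of cholesterol synthesis and uptake rose in 18 of 33 and fell in 3, with 10 higher and 0 lower in SLC22A15_OE. Fatty acid oxidation genes rose in 36 of 47 and fell in 5 (median 0.39), and CPT1C, a brain relative of the carnitine acyltransferases, went from 1.64 to 2.42 CPM to 8.90 to 11.98 CPM. PPARGC1B, a coactivator of mitochondrial genes, fell from 38.4 to 40.3 CPM to 18.6 to 21.4 CPM. In the respiratory chain 35 of 59 nuclear genes rose by small amounts and 5 fell (median 0.22). Of those that fell, CYCS, cytochrome c, moved most, from 260.2 to 329.8 CPM to 115 to 133 CPM. Counts of these lipid and respiratory lists were not redone with centred libraries, a scaling that shifted the change against vector by -0.12. ALDH1A1, a retinaldehyde dehydrogenase, was high in both lines, at 1455 to 1546 CPM in SLC22A10_OE and 1045 to 1145 CPM in SLC22A15_OE against 125 to 144 CPM in vector.

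Genes of epithelial junctions rose in 16 of 27 members and fell in 5 (median 0.39), and 15 were set apart as higher. JUP, plakoglobin of desmosomes and adherens junctions, stood at 6.03, 5.06 and 4.67 CPM in vector, at 37.8, 38.8 and 46.0 CPM in SLC22A10_OE and at 7.28 to 9.65 CPM in SLC22A15_OE. SPINT2, an inhibitor of surface proteases, rose from 0.308 to 0.816 CPM to 6.74 to 8.07 CPM. KRT19, the duct keratin, stood at 81.3, 66.1 and 72.1 CPM in vector, at 197, 222 and 229 CPM in SLC22A10_OE and at 66.9 to 76.3 CPM in SLC22A15_OE. KRT18 fell in both lines, to 95.5 to 101 CPM in SLC22A10_OE and 95.1 to 95.8 CPM in SLC22A15_OE against 160.1 to 163 CPM in vector. ERBB3, a receptor of the EGFR family that needs a partner to signal, rose from 1.81 to 2.39 CPM to 15.7 to 16.9 CPM. EGFR itself fell from 137 to 143 CPM to 58.3 to 64.9 CPM, and SLC22A15_OE fell with it, to 76.6 to 81.1 CPM. Its ligand AREG rose from 24.8 to 31.6 CPM to 86.5 to 96.5 CPM, while the ligands HBEGF and EPGN fell.

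Matrix and adhesion genes were uneven. Of 25 collagens and laminins 17 rose and 6 fell (median 0.44). COL5A1, a fibrillar collagen, stood at 2.40, 1.89 and 2.73 CPM in vector, at 13.1, 12.6 and 13.2 CPM in SLC22A10_OE and at 1.49 to 1.87 CPM in SLC22A15_OE. COL1A1 rose from 0.398 to 0.677 CPM to 4.24 to 5.43 CPM while COL1A2, the chain it pairs with, fell from 2.39 to 3.42 CPM to 0.744 to 1.55 CPM. Integrins rose in 3 of 15 and fell in 6. ITGB4, the hemidesmosome integrin, rose from 2.95 to 3.69 CPM to 14.2 to 16.8 CPM with 3.18 to 3.65 CPM in SLC22A15_OE. CD44, the hyaluronan receptor, fell from 1363 to 1475 CPM to 639 to 702 CPM and to 748 to 797 CPM in SLC22A15_OE. Of 13 mesenchymal genes 7 fell, CD44 among them, and 4 rose (median -0.28), with 8 lower and 3 higher in SLC22A15_OE. Among those that rose, S100A4 and FSTL1 rose by 1.37 and 1.34 on the log2 scale, and vimentin (VIM) differed by 0.13, a call lost when libraries were centred, without a mean trend in limma, or when vector library 1 or SLC22A10_OE library 2 was left out.

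Lists of signalling, axon guidance and clock genes each held members that rose and members that fell. YAP and TEAD targets fell in 16 of 27 and rose in 6 (median -0.39), and 2 rose and 14 fell in SLC22A15_OE. CTGF, a secreted YAP target, stood at 16.9, 15.4 and 16.0 CPM in vector, at 1.63, 2.17 and 1.66 CPM in SLC22A10_OE and at 7.12 to 9.02 CPM in SLC22A15_OE. JUN stood at 226 to 246 CPM in vector, 58.4 to 63.5 CPM in SLC22A10_OE and 90.3 to 103 CPM in SLC22A15_OE, while its relative JUND rose from 37.7 to 53.7 CPM to 97.7 to 128 CPM. EGR1, an immediate early factor, rose from 32.0 to 33.9 CPM to 78.9 to 84.8 CPM, with 35.5 to 37.2 CPM in SLC22A15_OE. Within TGF-beta and BMP genes 14 of 42 rose and 16 fell. The BMP antagonists NOG and CHRD went opposite ways, NOG from 27.7 to 35.6 CPM to 3.31 to 4.78 CPM and CHRD from 1.80 to 3.17 CPM to 7.70 to 11.1 CPM. The Wnt list had 21 of 34 higher and 8 lower, with WNT2B up from 2.07 to 2.80 CPM to 6.62 to 7.99 CPM and WNT4 down from 5.82 to 8.34 CPM to 2.52 to 3.17 CPM. In the Notch list, 10 of 21 rose and 3 fell, with NOTCH3 up from 49.6 to 59.9 CPM to 178, 189 and 224 CPM and the target HES1 down from 11.7 to 14.8 CPM to 4.39 to 4.68 CPM. Axon guidance genes rose in 29 of 49 and fell in 8 (median 0.48), and 27 were set apart as higher, with 6 higher and 11 lower in SLC22A15_OE. EFNB3, an ephrin, rose from 5.65 to 7.69 CPM to 25.9 to 28.2 CPM, and PLXNC1, a semaphorin receptor, fell from 8.06 to 9.62 CPM to 2.69 to 2.92 CPM. Clock genes rose in 5 of 17 and fell in 8, with the output gene DBP up from 9.93 to 10.8 CPM to 49.2 to 58.8 CPM and PER2 down from 16.9 to 18.3 CPM to 6.54 to 8.09 CPM.

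Nucleotide enzymes fell in 21 of 37 members and rose in 9. UPP1, which splits uridine, fell from 38.4 to 40.8 CPM to 11.8 to 12.8 CPM. Lysosome and autophagy genes rose in 26 of 49 and fell in 10 (median 0.30), with the autophagosome protein GABARAPL1 up from 5.97 to 7.65 CPM to 21.2 to 22.9 CPM against 5.59 to 6.89 CPM in SLC22A15_OE. NRF2 and glutathione genes were split, with 14 of 32 higher and 15 lower.

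The label was checked against markers of PANC-1 and of other cells. Of the PANC-1 markers 8 of 10 were tested, of which 3 rose and 3 fell in SLC22A10_OE, and 0 rose and 6 fell in SLC22A15_OE. VIM stood at 2988 to 3174 CPM in vector and 3319 to 3506 CPM in SLC22A10_OE. Of the acinar markers 1 of 16 was tested, of hepatocyte markers 1 of 13, of islet markers 2 of 12 and of leukocyte markers 2 of 12. The summed level of the leukocyte markers was 16.1 to 19.7 CPM in vector, 31.0 to 33.7 CPM in SLC22A10_OE and 21.0 to 21.4 CPM in SLC22A15_OE, and consisted mainly of CD68 and CD14. The summed fibroblast markers, 4 of 11 tested, were 186.5 to 190.4 CPM in vector and 511 to 551 CPM in SLC22A10_OE, of which COL3A1 made up 505 to 544 CPM. The squamous and basal markers, 2 of 9 tested, summed to 295.4 to 322.9 CPM in vector, 526.3 to 568.5 CPM in SLC22A10_OE and 348.2 to 375.4 CPM in SLC22A15_OE, with 1 higher and 1 lower in SLC22A10_OE. The ductal markers, 6 of 10 tested, summed to 450.5 to 488.4, 566.1 to 627.6 and 303.6 to 338.8 CPM, with 3 higher and 1 lower. Endothelial markers were split, with CDH5 and EGFL7 up and ROBO4 and CLDN5 down of 5 tested. Of the HEK293T markers 3 of 7 were tested, with sums of 18.6 to 20.7 CPM in vector and 16.6 to 19.6 CPM in SLC22A10_OE. The part of other cells in any result was not tested.

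Transcript GC content and chromosome moved with the change. Among 13986 genes with a GC value (96.1% of those tested), split into 5 equal groups by GC, the median log2 fold change against vector was -0.09 in the lowest group and 0.22 in the highest, and -0.05 and 0.13 against SLC22A15_OE. The share set apart as higher was 19.4% in the lowest group and 38.3% in the highest. Chromosome 19 had a median of 0.16 against vector and 37.6% of its genes set apart as higher, and chromosome 13 had -0.15. Chromosomes 7 and 8 had medians of 0.13 against vector but -0.02 and -0.01 against SLC22A15_OE. The chromosome 7 median covers blocks of opposite sign. Among 10 Mb bins with at least 20 tested genes, its medians against vector ran from -0.27 (30 to 40 Mb) to 0.57 (140 to 150 Mb). SLC22A15_OE had -0.24 and 0.49 in these bins. On chromosome 1, the bin from 220 to 230 Mb had 0.33 in SLC22A10_OE and 0.35 in SLC22A15_OE, both against vector. Non-coding genes (lncRNA, 958 tested) had a median of -0.06. The part of GC content and of chromosome copy in the list results was not tested.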

How the data were processed

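Total RNA depleted of ribosomal RNA was sequenced from 3 libraries of each of 3 PANC-1 lines. The authors deposited CPM per gene and library, and tables with per gene a log2 fold change, a log2 CPM, an FDR and a p-value, per the file headers. The submitters' processing notes name edgeR and the builds hg38 and mm9, with no role for either build, and the aligner, counter, annotation and strand setting were not given in the sources used here. All CPM values were whole reads within 0.1 read when divided by a step fitted to each library, so count tests on these reads could be run as alternatives. The CPM of a library did not sum to 1000000 exactly. Sums were 993719 to 997583 in vector, 1014546 to 1019962 in SLC22A10_OE and 985574 to 989059 in SLC22A15_OE. The authors' deposited table lists 10469 of 16750 genes with an FDR under 0.05 for SLC22A10_OE against vector, 5332 higher and 5137 lower.

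Genes at 1 CPM or more in 3 libraries were kept. limma 3.58.1 (R 4.3.3) with a mean trend was fitted to log2(CPM + 1) of all 9 libraries, with 6 residual degrees of freedom, 2-sided tests and Benjamini-Hochberg adjustment over 14554 genes. Fold changes are on that scale and understate the change of low genes. Columns could be tied to a group but not to a single sample label, and the 3 libraries are numbered as the columns are. Named genes were the 20 highest and 20 lowest set-apart genes by the smaller of both changes, with at least 5 CPM in the highest group and SLC22A10_OE beyond the other 6 libraries, and the 3 largest rises and falls of each list; other list members were named after their values were seen. The members and lists were chosen with earlier results of these data known. Symbols were missing for 187 genes, and some list members are not reported here. Alternatives were edgeR 4.0.16 and DESeq2 1.42.0 on the recovered reads, other filters, pseudocounts and scalings, and leaving out libraries. The fitting code was tested on simulated data.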

Additional observations from a re-analysis of the deposited data

Results flagged for a closer look

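The 11 genes here are only a part of the 285 set-apart genes that passed in opposite directions against vector in SLC22A10_OE and SLC22A15_OE. For each of the 11, the difference between the overexpressing lines passed in limma on log2(CPM + 1). The set-apart rule required that pass, so it is no further support. All share the vector libraries. TXNIP rose by 2.69 in SLC22A10_OE and changed by -0.34 in SLC22A15_OE, a difference of 3.03. STEAP2, a metalloreductase, differed by 1.52 (1.15 and -0.36). SLC1A1 differed by 1.57 (1.00 and -0.57), BHLHE40, a clock and hypoxia repressor, by 1.28 (0.74 and -0.53), and the duct factor SOX9 by 0.86 (0.30 and -0.56). VIM differed by 0.37 (0.13 and -0.24), but its rise in SLC22A10_OE was 0.013 with centred libraries (limma adjusted p = 0.816). That rise also lost its call in the other alternatives given with the mesenchymal genes. Lower in SLC22A10_OE were ONECUT2 with a difference of -1.38 (-1.18 and 0.20), the steroid sulfatase STS with -1.14 (-0.94 and 0.20), and the histone genes HIST1H2AB with -0.64 (-0.42 and 0.22) and HIST1H3A with -0.67 (-0.34 and 0.33), whose near-identical copies make their counts uncertain and whose list as a whole had 6 members higher and 7 lower of 29. SLC22A15, the transduced gene of the other line, had -3.99 (-0.56 and 3.44).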

How the results depend on the processing

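No single gene that the text names and that had a call changed its sign under the alternatives run. The balance over all genes did turn with libraries centred on their medians, from 5047 higher and 4728 lower to 3875 and 6233 against vector, and from 4021 and 3712 to 3063 and 5051 among set-apart genes. Genes at least 2-fold from vector numbered 1263, against 2064 with edgeR and 2066 with DESeq2 on the recovered reads, where no pseudocount of 1 CPM is added. Organic anion partners that were lower numbered 13, against 7 with the filter at 5 CPM, which tests fewer genes. Ribosomal proteins that were higher numbered 53, against 33 with libraries centred on their medians. The respiratory chain, lipid and lysosome lists were not redone with that scaling. Leaving out any 1 library gave 4648 to 5133 higher and 4261 to 4826 lower genes against vector, and 3667 to 4061 higher and 3353 to 3743 lower set-apart genes. In 2 alternatives chosen after seeing the data, leaving out the 3 libraries with little mitochondrial ribosomal RNA gave 5363 higher and 5091 lower genes against vector and 4301 higher and 4067 lower set-apart genes, and a term for them gave 5691 and 5479 against vector. Without these libraries 64 ribosomal proteins were higher (53 with them), 32 axon guidance genes were higher (29) and 42 mitosis genes were lower (39), and the other 12 list counts moved by at most 1. Alternatives for single genes were run only for a named set, picked largely for big changes in these same data, and not for all genes tested. In that set 75 of 7337 alternative values lost the call, 19 gained one (MYC, SLC2A1 and IFIT5) and 7243 stayed on their side of the threshold. Such a share does not describe genes with smaller changes. No paired analysis was possible because the columns of the table carry numbers that cannot be matched to the sample labels. Depth limits genes near 1 CPM, where counting alone gives an SD of 15.2% to 19.0%.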
